A study of Mus musculus with 6 samples.

Results

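The 28 genes described here encode the enzymes of cholesterol synthesis and the proteins that control them. They were chosen by name from pathway knowledge: 21 enzymes from the first acetyl-CoA step to the last sterol steps, 6 proteins that sense sterols or activate the transcription factor SREBP2, and 1 carrier protein that moves cholesterol between membranes. The deposited table held 55401 genes, of which 12084 had at least 0.5 FPKM (fragments scaled to transcript length and to sequencing depth) in at least 3 of the 6 libraries. All 28 genes were among them, and each reached that minimum in 6 of 6 libraries. Total RNA depleted of ribosomal RNA was sequenced from mouse bone-marrow-derived macrophages (BMDM), which are phagocytes grown from marrow precursors in medium containing L929 cell culture medium. After 7 days of culture, 3 samples (L-OHP) were exposed for 12 h to L-OHP at 5 µM, a common short name for oxaliplatin, a platinum drug used against cancer. A further 3 samples (L-OHP+FUC) were first kept for 12 h with 250 µg/ml of fucoidan, which is a sulfated polysaccharide from brown algae. Every library thus came from drug-exposed cells; cells without the drug, with or without fucoidan, were not analysed here. The labels name neither strain, age nor genotype and leave unsaid whether replicates came from different cultures or animals, so each p-value reflects no more than the spread among these 6 samples, and that spread may be technical.

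Cholesterol is built from acetyl-CoA through mevalonate, the isoprenoid diphosphates, squalene and lanosterol. When membrane sterol in the endoplasmic reticulum is low, SCAP escorts the precursor of SREBP2 to the Golgi, where the proteases encoded by Mbtps1 and Mbtps2 release the part that enters the nucleus and activates the genes of the pathway. When sterol is plentiful, INSIG proteins hold SCAP and the precursor back, and Insig1 is itself a gene that SREBP2 activates. In macrophages, which take up large amounts of lipoprotein and cell debris, the pathway is known to be low when cholesterol is plentiful.

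On the deposited values, some genes of each enzyme stage were called lower in the cells that had received fucoidan. These were 3 of 7 mevalonate genes and 2 of 2 of the prenyl branch. From squalene to lanosterol they were 2 of 3, and in the later sterol steps 2 of 9. The last count was close to the 19.3% of all tested genes called lower, which is the background for each count by stage or role below. After correction for GC content and transcript length (below), no enzyme gene from squalene synthesis onward was called lower, and after median ratio rescaling no gene of the prenyl branch or of the steps from squalene to lanosterol was. Of the 28 genes, 11 fell and 1, Scap, rose in L-OHP+FUC relative to L-OHP (limma on log2(FPKM + 1), Benjamini-Hochberg adjusted p under 0.05 over all 12084 genes), and 16 did not pass. Over all tested genes, 19.3% were called lower and 7.67% higher. The groups did not overlap for 14 of the 28 genes on the lower side and for 2 on the higher side, against 30.9% and 16.1% of all tested genes. The median log2 fold change of the 28 genes was -0.23, beside -0.10 over all tested genes, and 23 of the 28 values were negative. When each library was rescaled by its median ratio or by quantile normalization, the median over all tested genes moved to -0.01 and 0.03. All-gene calls were then 1680 lower and 1581 higher, and 1359 lower and 1565 higher, in place of 2335 and 927. The median of the 28 genes was -0.12 and -0.06 in those fits, with 5 and 4 genes lower and Scap higher in both. Of all tested genes, 13.9% and 11.2% were then lower, and 13.1% and 13.0% higher. Because these are bulk samples, fewer cells of a type and less RNA per cell cannot be told apart.

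The number of calls depended on single libraries, which held for the whole table as well. Of the 11 genes that fell, 3 (Hmgcs1, Insig1 and Stard4) passed in every alternative fit that tested them, and the other 8 lost the call in at least 1. Without L-OHP replicate 1, L-OHP+FUC replicate 1 or L-OHP+FUC replicate 2, 4 genes were called lower each time, while the share of all tested genes called lower was 8.52%, 7.59% and 6.91%. The count was 7 without L-OHP replicate 2, 8 without L-OHP replicate 3 and 6 without L-OHP+FUC replicate 3, where 18.7%, 13.0% and 17.3% of all tested genes were called lower. All 12 called genes kept their sign in every fit.

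Transcript composition moved with the comparison. The log2 fold change over all tested genes rose with the GC content of the transcript (Pearson r = 0.32 across 12074 genes, which are not independent replicates), and across the 28 genes r was 0.53. After each library was corrected for GC content and transcript length, 6 of the 28 genes were lower (Acat2, Hmgcs1, Mvd, Fdps, Insig1 and Stard4) and 2 higher (Scap and Mbtps1), against 11.9% and 11.5% of the 12074 genes. The median of the 28 genes was then -0.24, while that of all genes was 0.01. Of the 14 genes of lowest GC content (39.96% to 48.6%), 8 were called lower on the uncorrected values and their median was -0.46, or -0.27 after correction. In the 14 genes of highest GC content (48.7% to 59.1%), 3 were called lower and 1 higher, and the median was -0.17, or -0.21 after correction. The shares of all tested genes called lower or higher within these 2 ranges of GC content were not counted. The 19.3% called lower covers all GC contents, so it is not a matched background for either count. The part of transcript composition in each fold change was not tested beyond this correction, and corrected values are given with the results below.

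**Figure D1:**
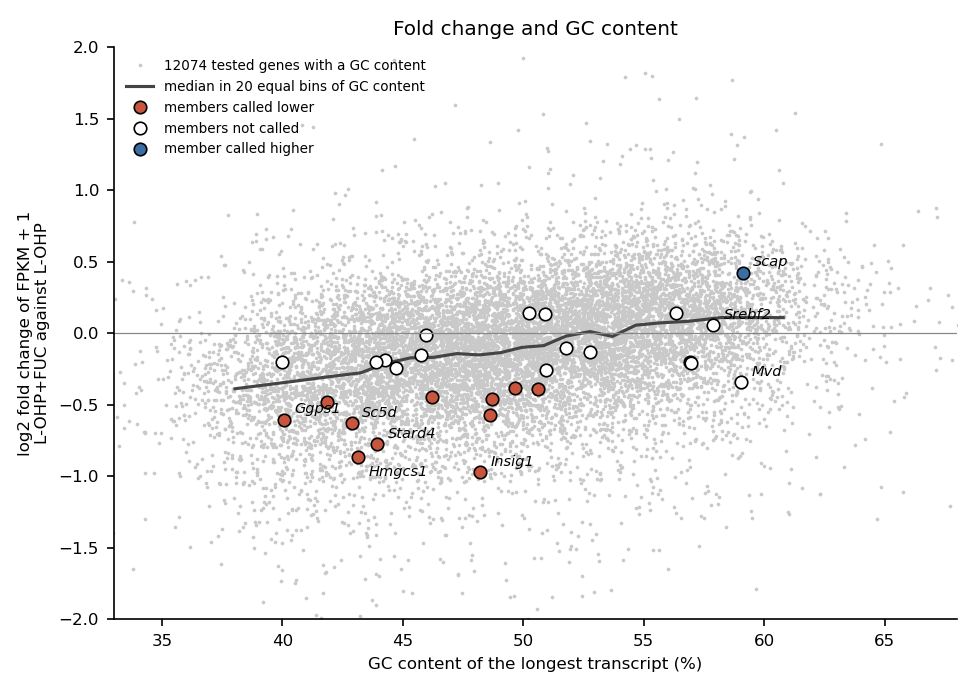
Log2 fold change of FPKM + 1 (L-OHP+FUC against L-OHP, vertical axis) against the GC content of the longest transcript in percent (horizontal axis). Grey points are the 12074 tested genes with a GC content, of which 66 lie outside the plotted range. The line joins the medians of 20 bins holding equal numbers of genes, and large circles are the 28 pathway genes, filled in red where lower and in blue where higher. The line rises from left to right, and Insig1, Hmgcs1 and Stard4 lie far below it at -0.97, -0.87 and -0.78.

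The sterol regulatory element, the short sequence that SREBP binds, was sought because SREBP2 activates genes of the pathway. The search covered the 250 bases before the start of each gene, using RefSeq promoters on GRCm38.p6. Which of the 28 genes SREBP2 activates in these cells was not tested. Entries existed for 24 of the 28 genes. Searched on both strands, the element written TCACNCCAC occurred exactly in 1 of the 24, Hmgcs1, and in 1.05% of all 32851 promoters. With 1 letter allowed to differ, a choice made after the exact matches were seen, 11 of the 24 genes held it (45.8%), compared with 20.7% of all promoters and 25.2% of the 8468 tested genes with an entry. By fold change, these were 4 of the 8 genes that fell and have an entry, and 7 of the other 16. CCAAT, the box of NF-Y, was present in 19 of the 24 genes and in 33.8% of all promoters, or 40.1% of the tested genes. GGGCGG, the box of Sp1, was present in 20 of the 24 and in 32.7% of all promoters, or 63.8% of the tested genes. Matches of different motifs may share bases and were counted separately. A match of letters describes the window and does not show that a protein binds there.

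The windows below are those 5 with a match, exact or with 1 letter different, that lie wholly outside the annotated span of their own gene. Whether they lie within other annotated genes was not checked. Each runs 5′ to 3′ on the strand of its gene, and capitals mark the element and any CCAAT box, either of which may be written as its reverse complement. They are shown so that the exact element of Hmgcs1, which fell, can be read beside those of Cyp51, which also fell, and of Srebf2, Hsd17b7 and Nsdhl, which did not pass. The window of Hmgcs1 is chr13:119690174-119690262 on the plus strand, with the element at positions -137 to -129 from the start. The window of Cyp51 is chr5:4104757-4104845 on the minus strand, with the element at -108 to -100. The window of Srebf2 is chr15:82147067-82147155 on the plus strand, with the element at -162 to -154. The window of Hsd17b7 is chr1:169969254-169969342 on the minus strand and holds 2 elements. The window of Nsdhl is chrX:72918276-72918364 on the plus strand, with the element at -205 to -197.
Hmgcs1: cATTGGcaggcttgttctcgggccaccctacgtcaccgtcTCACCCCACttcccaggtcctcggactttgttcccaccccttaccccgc
Cyp51: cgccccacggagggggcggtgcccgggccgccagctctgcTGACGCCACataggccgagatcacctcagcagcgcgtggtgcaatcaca
Srebf2: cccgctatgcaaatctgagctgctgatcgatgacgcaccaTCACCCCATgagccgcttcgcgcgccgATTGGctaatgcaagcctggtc
Hsd17b7: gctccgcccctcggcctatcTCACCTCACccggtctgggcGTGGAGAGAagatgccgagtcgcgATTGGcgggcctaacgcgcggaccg
Nsdhl: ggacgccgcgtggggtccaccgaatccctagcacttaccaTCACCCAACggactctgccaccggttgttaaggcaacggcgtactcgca

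At the head of the pathway, 3 of the 7 mevalonate genes fell (Hmgcs1, Idi1 and Acat2), none rose, and their median log2 fold change was -0.34. Hmgcs1, the cytosolic synthase that makes HMG-CoA (ENSMUSG00000093930, chr13:119690379-119708260, GRCm38), measured 13.8, 14.9 and 13.8 FPKM in L-OHP and 6.27, 7.62 and 8.14 in L-OHP+FUC. All 3 fucoidan libraries lay well below all 3 others, with no overlap. The means were 14.2 ± 0.636 and 7.35 ± 0.966 FPKM (SD, n = 3 each), a log2 fold change of -0.87 ± 0.11 (SE, adjusted p = 0.0054 by limma), and -0.67 after correction for GC content and length (adjusted p = 0.0077). Idi1, the isomerase that interconverts the isoprenoid building blocks, measured 6.72, 6.55 and 6.49 FPKM against 3.79, 4.32 and 5.32. The L-OHP libraries were close together, and the fucoidan libraries spread below them without overlap. Its log2 fold change was -0.48 ± 0.12 (SE, limma adjusted p = 0.0274), and -0.25 after correction, where it did not pass (adjusted p = 0.0765). Acat2, the thiolase that joins acetyl-CoA units, measured 3.77, 2.82 and 3.03 FPKM against 2.29, 2.16 and 2.16. The groups did not overlap, although L-OHP replicate 1 stood above its group and the fucoidan libraries were nearly alike. Its log2 fold change was -0.39 ± 0.11 (SE, limma adjusted p = 0.0417), and -0.35 after correction (adjusted p = 0.0458). Idi1 did not pass once L-OHP replicate 1 or 3 or L-OHP+FUC replicate 1 or 2 was left out (limma adjusted p from 0.0614 to 0.0924). Acat2 did not pass with any 1 of the same 4 libraries left out, nor without L-OHP+FUC replicate 3 (limma adjusted p from 0.0737 to 0.124).

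The other 4 mevalonate genes did not pass. Mvd, the decarboxylase that yields isopentenyl diphosphate, measured 14.9, 18.7 and 12.4 FPKM against 12.2, 10.9 and 12.1, so that the groups did not overlap but nearly touched. Its log2 fold change was -0.34 ± 0.15 (SE, limma adjusted p = 0.124). Mvd is GC-rich (59.0%), and after correction its log2 fold change was -0.50 and passed (adjusted p = 0.0250). Aacs, which makes acetoacetyl-CoA from a ketone body, and Pmvk, the phosphomevalonate kinase, gave -0.20 and -0.21. Mvk, the mevalonate kinase, gave 0.14, and for these 3 genes the groups overlapped. After correction Aacs, Pmvk and Mvk gave -0.34, -0.28 and 0.0004, and none passed.

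Farnesyl diphosphate, made by the enzyme of Fdps, is the branch point to sterols and to prenylated proteins, and Ggps1 encodes the synthase of geranylgeranyl diphosphate for prenylation. Both genes fell. Fdps measured 7.09, 7.39 and 5.61 FPKM against 4.87, 4.99 and 4.69. The fucoidan libraries were tightly grouped below the lowest L-OHP library. The log2 fold change was -0.39 ± 0.11 (SE, limma adjusted p = 0.0441), and -0.38 after correction (adjusted p = 0.0452). Ggps1 measured 4.24, 4.48 and 4.34 FPKM against 2.02, 2.12 and 3.63. L-OHP+FUC replicate 3 lay much nearer the L-OHP libraries than the other two, yet below them all. Ggps1 had a log2 fold change of -0.61 ± 0.17 (SE, limma adjusted p = 0.0414), and -0.28 after correction, where it did not pass (adjusted p = 0.152). Both calls were lost without L-OHP replicate 1 or 2 or L-OHP+FUC replicate 1 or 2, that of Fdps also without L-OHP+FUC replicate 3, and that of Ggps1 also without L-OHP replicate 3. The limma adjusted p in those fits ran from 0.0847 to 0.131 for Fdps and from 0.0774 to 0.130 for Ggps1.

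**Figure D2:**
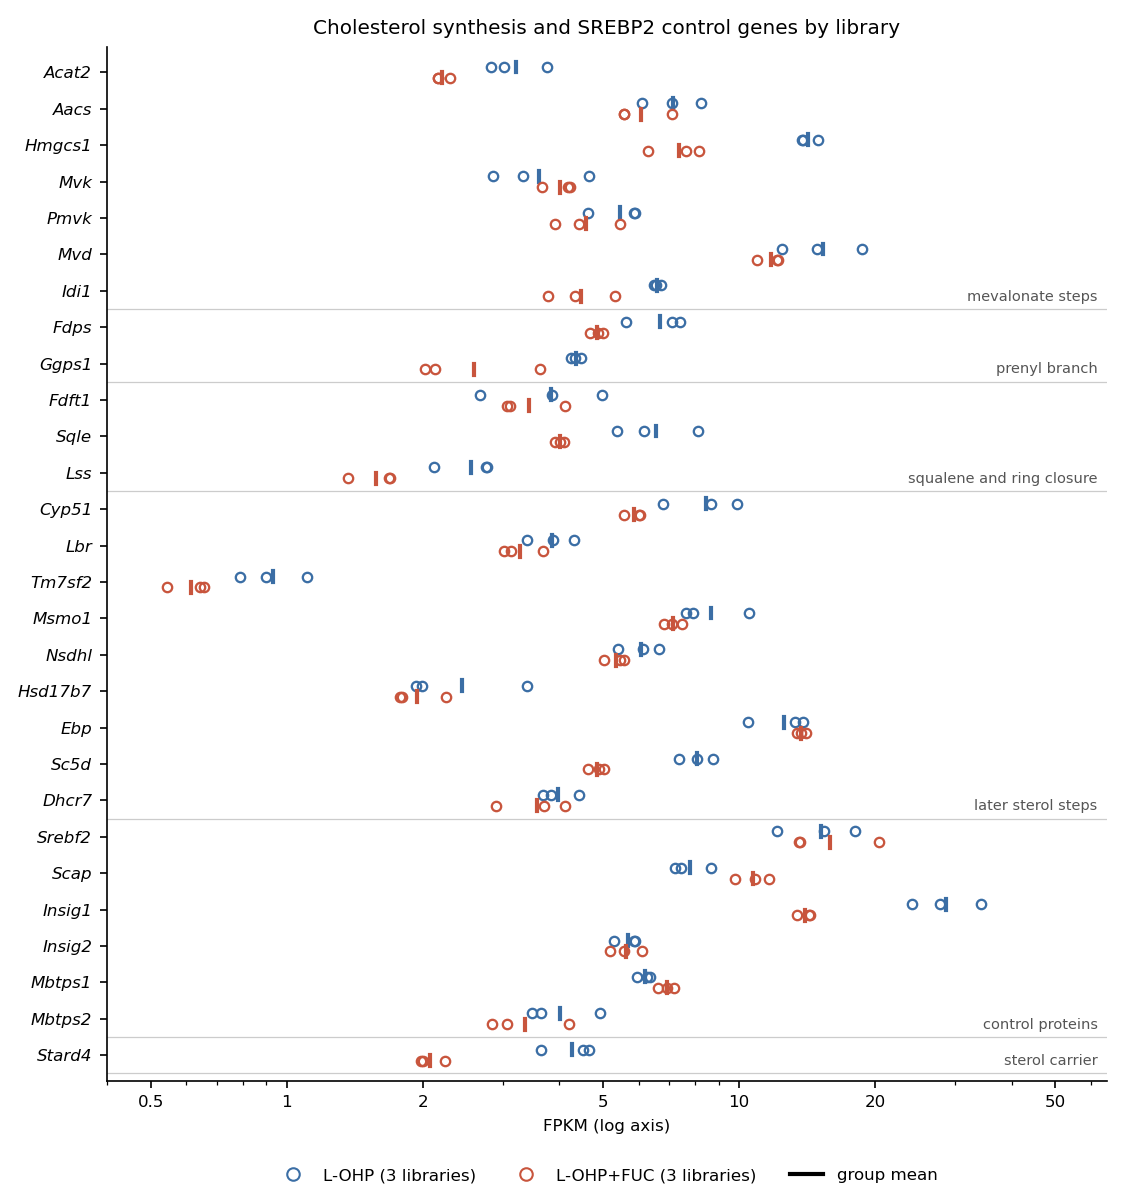
FPKM (horizontal log axis) of each of the 28 genes in each library, ordered by role in the pathway. Circles are single libraries, blue for the 3 L-OHP and red for the 3 L-OHP+FUC libraries, and short bars are group means. The L-OHP+FUC points of Hmgcs1, Insig1, Stard4 and Sc5d sit clear below all L-OHP points, whereas those of Srebf2 and Insig2 are intermixed with them.

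From squalene to lanosterol, 2 of the 3 genes fell, with a median log2 fold change of -0.46. Sqle, the squalene epoxidase and a known rate-limiting step, measured 6.15, 8.12 and 5.36 FPKM against 4.02, 4.11 and 3.91. The L-OHP libraries spread widely, and the fucoidan libraries were alike and below them. Sqle had a log2 fold change of -0.57 ± 0.14 (SE, limma adjusted p = 0.0271), and -0.45 after correction, where it did not pass (adjusted p = 0.0692). Lss, the cyclase that forms lanosterol, measured 2.77, 2.76 and 2.12 FPKM against 1.36, 1.68 and 1.69. No fucoidan library reached the lowest L-OHP library. Lss had a log2 fold change of -0.46 ± 0.12 (SE, limma adjusted p = 0.0306), and -0.23 after correction, where it did not pass (adjusted p = 0.185). Fdft1, the squalene synthase between Fdps and Sqle, overlapped between groups, at 4.97, 3.85 and 2.67 FPKM against 4.13, 3.11 and 3.06, and gave -0.11 (limma adjusted p = 0.712), as it did after correction. Neither Sqle nor Lss passed when L-OHP replicate 1 or any single L-OHP+FUC replicate was left out, nor did Lss without L-OHP replicate 2 (limma adjusted p from 0.0642 to 0.0821 for Sqle and from 0.0521 to 0.0996 for Lss).

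Of the 9 genes that turn lanosterol into cholesterol, 2 fell and 7 did not pass, with a median log2 fold change of -0.20. That count was close to the share of all tested genes called lower, 19.3%. Sc5d, the sterol desaturase, measured 8.07, 8.76 and 7.34 FPKM against 4.64, 5.02 and 4.89. The groups were far apart, and the call held whichever single library was left out. The log2 fold change was -0.63 ± 0.09 (SE, limma adjusted p = 0.0080). Sc5d has a GC content of 42.9%, and after correction its log2 fold change was -0.36 and did not pass (adjusted p = 0.0629). Cyp51, the demethylase of lanosterol, measured 8.66, 9.88 and 6.80 FPKM against 6.02, 6.01 and 5.55. The groups did not overlap, with L-OHP replicate 3 nearest the fucoidan libraries. Cyp51 had a log2 fold change of -0.45 ± 0.13 (SE, limma adjusted p = 0.0472), and -0.31 after correction, where it did not pass (adjusted p = 0.173). Leaving out L-OHP replicate 1 or 2 or any single L-OHP+FUC replicate ended the call of Cyp51 (limma adjusted p from 0.0808 to 0.126).

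Among the 7 later genes that did not pass, Tm7sf2 and Msmo1 had groups that did not overlap. Tm7sf2, a sterol reductase and the least expressed of the 28 genes, measured 0.897, 0.790 and 1.11 FPKM against 0.656, 0.642 and 0.542, a log2 fold change of -0.26 (limma adjusted p = 0.106) on a scale that understates changes of low genes. Msmo1, the sterol methyl oxidase, measured 7.63, 10.5 and 7.89 FPKM against 7.45, 7.09 and 6.81 (-0.24, limma adjusted p = 0.196). Lbr, a sterol reductase that is also a protein of the nuclear envelope, gave -0.19. Nsdhl and Hsd17b7, which remove methyl groups from the ring together with Msmo1, gave -0.15 and -0.20. Dhcr7, the reductase of the last sterol steps, gave -0.13, and Ebp, the sterol isomerase, gave 0.13. These 5 genes overlapped between groups. After correction Tm7sf2 gave -0.26 and Msmo1 -0.11, Lbr -0.02, Nsdhl -0.04 and Hsd17b7 0.03. Dhcr7 then gave -0.20 and Ebp 0.14, and none of the 7 passed. Over all 12 enzymes that did not pass, the log2 fold changes ran from -0.34 to 0.14, and 10 of the 12 were negative.

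Of the 6 control genes, 1 fell, 1 rose and 4 did not pass, with a median log2 fold change of 0.02. Insig1, which holds SCAP in the endoplasmic reticulum (ENSMUSG00000045294, chr5:28071363-28078662), was the most abundant of the 28 in L-OHP. Insig1 measured 27.7, 34.2 and 24.1 FPKM in L-OHP and 13.4, 14.3 and 14.3 in L-OHP+FUC. The fucoidan libraries were nearly alike and far below every L-OHP library. The means were 28.7 ± 5.12 and 13.98 ± 0.517 FPKM (SD, n = 3 each), a log2 fold change of -0.97 ± 0.13 (SE, limma adjusted p = 0.0067), and -0.91 after correction (adjusted p = 0.0087). Insig2, its paralog, measured 5.87, 5.30 and 5.84 FPKM against 5.17, 6.10 and 5.55. The groups were intermixed, and the log2 fold change was -0.01, with a 95% interval from limma of -0.24 to 0.21 (adjusted p = 0.923), or 0.09 after correction (adjusted p = 0.444). The ratio of Insig1 to Insig2 was 4.73, 6.46 and 4.12 in L-OHP and 2.59, 2.34 and 2.57 in L-OHP+FUC. It did not overlap between groups (two-sided exact permutation p = 0.1, the smallest that 3 against 3 allows, or 0.2 adjusted over the 2 ratios tested). The ratio was computed after the values were seen. Insig1 alone already separated the groups and Insig2 was intermixed, so this outcome was fixed by the values above and adds no support to them. The ratio of Scap to Insig1 was also computed but not tested, because both genes separated the groups.

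Scap, the escort of SREBP2 (ENSMUSG00000032485, chr9:110333288-110384950), was the only one of the 28 genes called higher on the deposited values. It measured 7.45, 8.64 and 7.22 FPKM in L-OHP and 11.6, 10.9 and 9.78 in L-OHP+FUC. Every fucoidan library was above every L-OHP library. The log2 fold change was 0.42 ± 0.10 (SE, limma adjusted p = 0.0279), and 0.30 after correction (adjusted p = 0.0270). The call of Scap ended once L-OHP replicate 1 or 3 or L-OHP+FUC replicate 1 or 2 was left out (limma adjusted p from 0.0730 to 0.0949). The ratio of Scap to Srebf2, also computed after the values were seen, was 0.615, 0.480 and 0.470 in L-OHP and 0.569, 0.795 and 0.723 in L-OHP+FUC. It overlapped between groups, since L-OHP replicate 1 lay above L-OHP+FUC replicate 1 (two-sided exact permutation p = 0.2, unchanged by adjustment over the 2 ratios).

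Srebf2, the gene of SREBP2 itself (ENSMUSG00000022463, chr15:82147181-82205379), measured 12.1, 18.0 and 15.4 FPKM in L-OHP and 20.4, 13.7 and 13.5 in L-OHP+FUC. L-OHP+FUC replicate 1 was the highest of the 6 libraries and the other fucoidan libraries lay within the L-OHP range. The log2 fold change was 0.05 ± 0.20 (SE, limma adjusted p = 0.863), and its 95% interval of -0.42 to 0.52 covers changes in either direction. After correction it was -0.01 (adjusted p = 0.958). Without L-OHP+FUC replicate 1 it was -0.13, and without L-OHP replicate 1 it was -0.09. Mbtps1, the protease that makes the first cut in SREBP2, measured 6.26, 5.93 and 6.35 FPKM against 6.94, 7.17 and 6.62. The groups did not overlap, on the higher side, yet the log2 fold change of 0.14 did not pass (limma adjusted p = 0.235). After correction it was 0.32 and passed (adjusted p = 0.0320). Mbtps2, the protease of the next cut, overlapped between groups and gave -0.20, or 0.16 after correction, passing in neither fit.

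Stard4, the soluble carrier that moves cholesterol between membranes (ENSMUSG00000024378), measured 4.52, 4.66 and 3.65 FPKM in L-OHP and 2.23, 1.98 and 2.00 in L-OHP+FUC. The groups were far apart. The means were 4.28 ± 0.548 and 2.07 ± 0.14 FPKM (SD, n = 3 each), a log2 fold change of -0.78 ± 0.11 (SE, limma adjusted p = 0.0071), and -0.53 after correction (adjusted p = 0.0359).

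**Figure D3:**
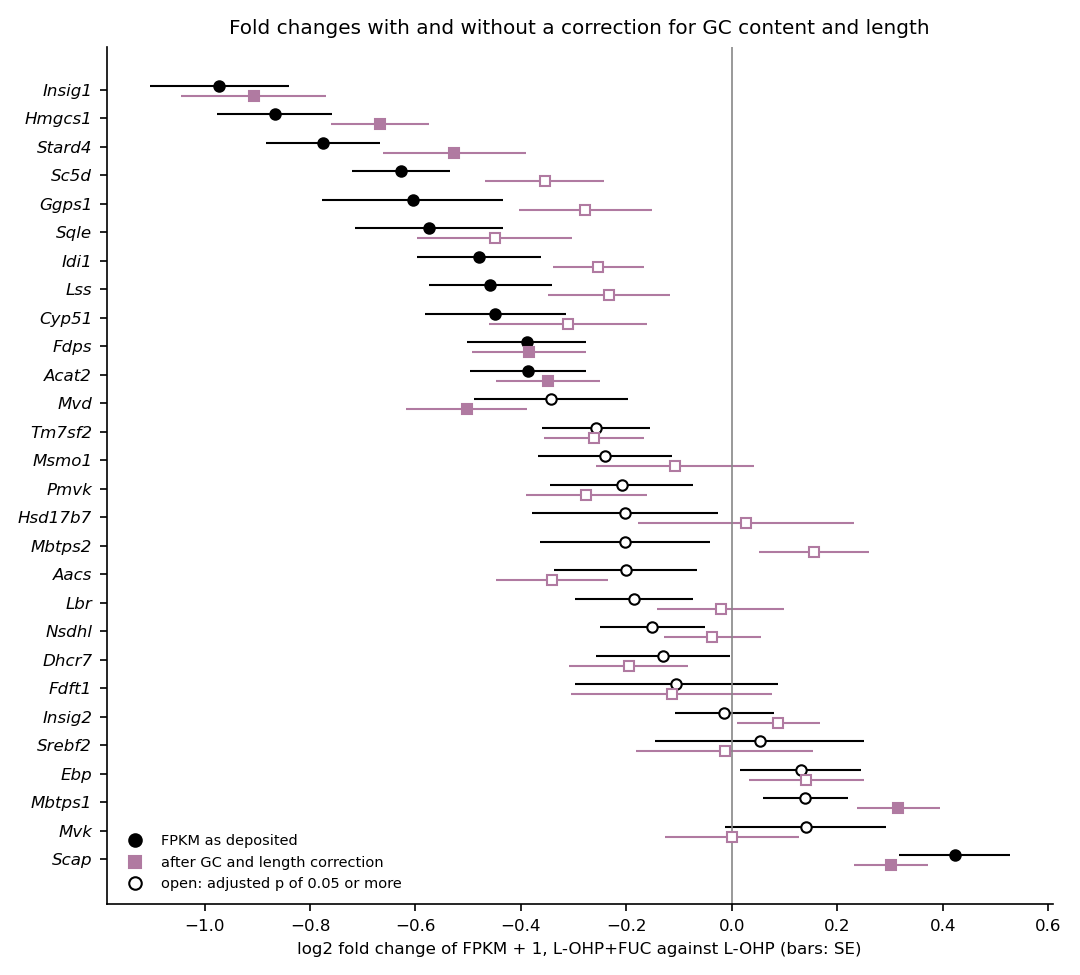
Log2 fold change of FPKM + 1 (L-OHP+FUC against L-OHP, horizontal axis) of the 28 genes, with bars of 1 SE. Circles use FPKM as deposited, squares the values corrected for GC content and length, and open symbols mark an adjusted p of 0.05 or more. Insig1, Hmgcs1 and Stard4 are the 3 lowest in both fits, and Sc5d and Ggps1 move to -0.36 and -0.28 after correction.

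In the authors' deposited table, 7 of the 28 genes had a q-value under 0.05 on the lower side (Hmgcs1, Ggps1, Sqle, Lss, Sc5d, Insig1 and Stard4) and 1 on the higher side (Scap, q = 0.0057). Over the 12084 tested genes, the authors' deposited table put 12.9% under that q-value on the lower side and 9.93% on the higher side. All 7 were also among the 11 called lower by limma. The authors' deposited table marked 2 of the 28 genes as significant, Insig1 and Stard4, whose ratios of mean FPKM in that table were 0.488 and 0.485. The share of all tested genes with that mark was not counted, so this count has no background here. Hmgcs1, at a ratio of 0.519 in the authors' deposited table, carried no mark.

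Seen per library, the summed FPKM of the 21 enzymes was 135, 146 and 122 in L-OHP and 103, 104 and 102 in L-OHP+FUC. The fucoidan libraries were nearly alike, and the L-OHP libraries differed more among themselves. L-OHP replicate 2 was the highest of its group for 18 of the 28 genes, while it was the highest for 35.1% of all tested genes. L-OHP replicate 3 was the lowest of its group for 16 of the 28 genes, and for 32.0% of all tested genes. The mean deviation of the 28 genes from their means over all libraries was 0.14, 0.24 and 0.05 log2 units in L-OHP and -0.13, -0.14 and -0.16 in L-OHP+FUC. The same mean over all tested genes was 0.06, 0.07 and 0.06 in L-OHP and -0.10, -0.07 and -0.03 in L-OHP+FUC, so the groups separated there too, and L-OHP replicate 3 lay slightly lower for the 28 genes than for all genes. After the correction for GC content and length these were 0.10, 0.21 and -0.01 against -0.06, -0.09 and -0.15, and the groups did not overlap.

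Of 68 genes around the pathway, listed from pathway knowledge, 62 were tested. They gave 12 lower and 6 higher calls and a median log2 fold change of 0.01, with the shares of all tested genes, 19.3% and 7.67%, as background for these counts and for those of each list. After correction 5 were lower and 9 higher, beside 11.9% and 11.5% of all genes. Genes for sterol-regulated degradation and retention in the endoplasmic reticulum gave 3 lower and 2 higher of 14. Among them Erlin1, which binds SREBP complexes, fell by 0.43 on the log2 scale, and the ubiquitin ligase gene Rnf139 fell by 0.35. After correction Erlin1 gave -0.32 and passed (adjusted p = 0.0287), while Rnf139 gave -0.05 and did not (adjusted p = 0.715). Vcp, the ATPase that extracts ubiquitinated proteins from the membrane, rose by 0.43, or by 0.47 after correction (adjusted p = 0.0161). Of the 7 genes for electron donors and acetyl-CoA supply, 2 rose and none fell. Por, the reductase that passes electrons to Cyp51 and Sqle, measured 77.5, 71.6 and 77.6 FPKM in L-OHP and 119, 105 and 103 in L-OHP+FUC. The groups did not overlap, and the log2 fold change was 0.52 ± 0.09 (SE, limma adjusted p = 0.0122), or 0.36 after correction (adjusted p = 0.0381). Acss2, which makes acetyl-CoA from acetate, rose by 0.37, or by 0.47 after correction (adjusted p = 0.0115).

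Among 12 genes that use isoprenoids, 2 fell and 1 rose. Pggt1b, the catalytic subunit that attaches geranylgeranyl groups to proteins, measured 5.41, 5.33 and 5.02 FPKM in L-OHP and 1.32, 1.46 and 2.22 in L-OHP+FUC. The groups lay far apart, and the log2 fold change was -1.24 ± 0.14 (SE, limma adjusted p = 0.0043), or -0.82 after correction (adjusted p = 0.0056). Dhdds, which builds dolichol, rose by 0.59 and Pdss1, which builds the tail of ubiquinone, fell by 0.32. Neither passed after correction, where Dhdds gave 0.57 (adjusted p = 0.0524) and Pdss1 gave -0.02 (adjusted p = 0.927). Among 12 tested genes for cholesterol esters, lysosomal export and transfer between membranes, 2 fell and 1 rose. Stard5, another soluble sterol carrier of the family of Stard4, measured 7.34, 7.46 and 7.09 FPKM against 11.1, 11 and 10.7. Its direction was opposite to that of Stard4, with no overlap and a log2 fold change of 0.53 ± 0.08 (SE, limma adjusted p = 0.0075), or 0.52 after correction (adjusted p = 0.0066). Nceh1, a cholesterol ester hydrolase, fell by 0.37 and Osbpl8, an oxysterol-binding protein, by 0.87. Neither passed after correction, where Nceh1 gave -0.17 (adjusted p = 0.162) and Osbpl8 gave -0.42 (adjusted p = 0.0532).

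Of 7 tested genes for oxysterols and efflux, 3 fell and none rose. Abca1, which exports cholesterol to apolipoproteins, measured 58.9, 62.8 and 68.4 FPKM in L-OHP and 33.8, 39.8 and 46.2 in L-OHP+FUC, with no overlap and a log2 fold change of -0.66 ± 0.13 (SE, limma adjusted p = 0.0149). Cyp27a1, which makes an oxysterol, and Abcg1, a further exporter, had log2 fold changes of -0.73 and -0.57. All 3 also passed after correction, where Abca1 was -0.31 (adjusted p = 0.0419), Cyp27a1 -0.81 (adjusted p = 0.0124) and Abcg1 -0.51 (adjusted p = 0.0416). Of 10 tested genes of SREBP1 and fatty acid synthesis, 2 fell, Acsl3 (-0.53) and Lpin1 (-0.49). After correction they gave -0.31 and -0.36 and did not pass (adjusted p = 0.0828 and 0.0722). Srebf1, the gene of SREBP1, had a log2 fold change of -0.02 (limma adjusted p = 0.942), or -0.13 after correction (adjusted p = 0.444). Of the 17 related genes that passed and that the naming rule covers, 3 (Por, Pggt1b and Stard5) passed whichever library was left out. With L-OHP+FUC replicate 2 left out, Abca1 no longer passed (limma adjusted p = 0.0584), and with L-OHP+FUC replicate 1 left out, Cyp27a1 did not (limma adjusted p = 0.0520). The other 12 lost theirs in 3 to 6 of the 6 fits, always including the fit without L-OHP+FUC replicate 1 and that without L-OHP+FUC replicate 2 (limma adjusted p from 0.05 to 0.135).

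**Figure D4:**
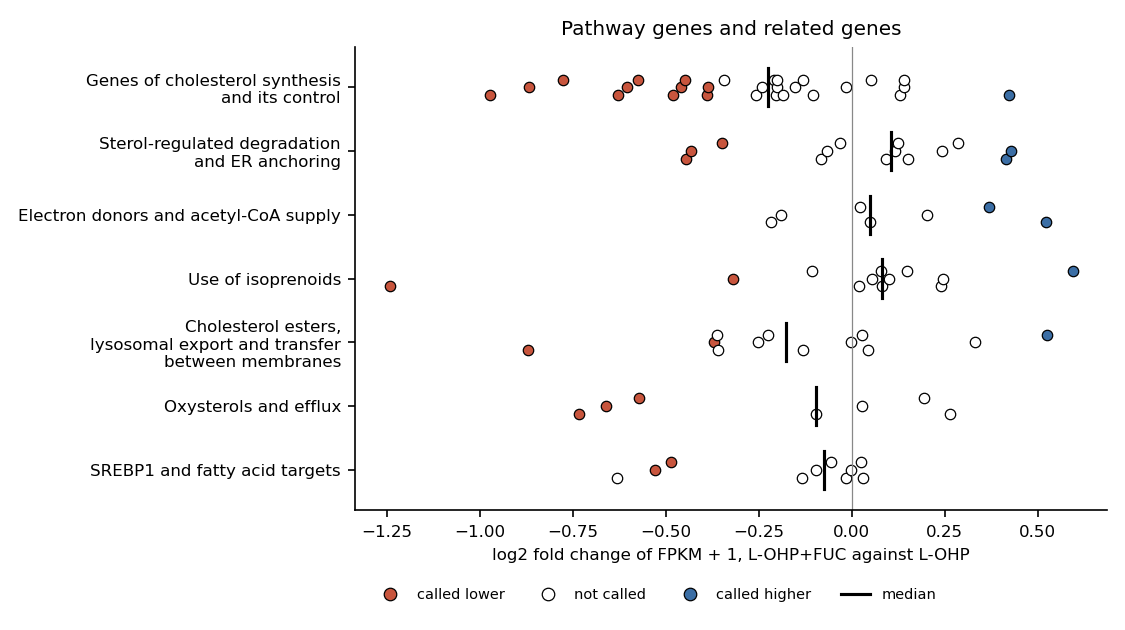
Log2 fold change of FPKM + 1 (L-OHP+FUC against L-OHP) of the 28 genes of cholesterol synthesis and its control (top row) and of the 62 tested related genes in 6 lists (rows below). Each point is a gene, red where called lower, blue where called higher and open where not called, and the vertical bars are medians. Most points of the top row lie left of 0, around a median of -0.23, and Pggt1b is the point farthest left in the plot, at -1.24.

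Annotated genes overlapped 15 of the 28 genes, on the same strand for 6 and on the opposite strand for 11, and the use of strand in the authors' values is not given in the sources used here. Reads from the bases that such pairs share cannot be told apart without strand, and for pairs on the same strand not even with it. Tm7sf2, the least expressed of the 28 genes, shares 532 bases with Vps51 on the same strand. Vps51 averaged 10.9 FPKM in L-OHP and 12.5 in L-OHP+FUC (log2 fold change 0.19, limma adjusted p = 0.315), against 0.932 and 0.614 for Tm7sf2. Mvd lies wholly within Gm20388 on the opposite strand. Ggps1 and Cyp51 share 257 and 166 bases with Arid4b and Akap9 on the opposite strand. Arid4b averaged 1.53 FPKM in L-OHP and 0.408 in L-OHP+FUC, and Akap9 2.12 and 0.419, so that both neighbours fell as well (log2 fold changes -0.84 and -1.14, limma adjusted p = 0.0122 and 0.0043). Fdft1 shares 774 bases with the opposite-strand gene Ctsb, which averaged 2239 FPKM in L-OHP. Fdps shares 7512 bases with Gm43738 on the same strand, and Hmgcs1 and Lss share 6190 and 11268 bases with the antisense genes Gm48342 and 4930483K19Rik, of which Gm43738 was listed at 0 in every library and the antisense genes averaged 0.230 and 0.0509 FPKM in L-OHP. Srebf2 contains Mir33, which was listed at 0 in every library. The part of these overlaps in the results was not tested.

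Across the whole series, the spacing of low FPKM values implied 15.7 to 18.7 M fragments per library (M, mega). The libraries differed in composition: 10711 to 10813 genes reached 1 FPKM in L-OHP and 9841 to 10188 in L-OHP+FUC, and genes of the mitochondrial genome took 5.99% to 9.36% of the summed FPKM in L-OHP and 8.84% to 9.44% in L-OHP+FUC. All 7 macrophage markers were at the minimum, with summed FPKM of 12338 to 17805 and 13270 to 14261. Lyz2 made up most of that sum, at 10005 to 15185 FPKM in L-OHP and 10591 to 11655 in L-OHP+FUC. Some macrophage markers separated the groups without overlap, on the lower side Mertk (48.7 to 53.7 and 29.2 to 30.7 FPKM), Fcgr1 (112 to 175 and 83.3 to 93.1) and Adgre1 (712 to 835 and 616 to 678). Csf1r did so on the higher side, at 401 to 448 and 545 to 627. Lyz2, Cd68 (845 to 1235 and 1150 to 1277) and Itgam (58.8 to 92.4 and 38.1 to 98.1) overlapped. Of all tested genes, 30.9% did not overlap on the lower side and 16.1% on the higher side. Of 7 neutrophil markers 2 were at the minimum, summing to 3.79 to 4.26 FPKM in L-OHP and 5.45 to 6.34 in L-OHP+FUC, with Ly6g and Retnlg listed at 0. Of 6 fibroblast markers 4 were at the minimum (4.84 to 11.8 and 7.09 to 7.52 FPKM), of 4 endothelial markers 1 (2.49 to 3.05 and 1.48 to 1.58), and of 5 B cell markers 1 (1.22 to 1.42 and 0.629 to 1.27). No marker of dendritic, T and NK or erythroid cells was at the minimum, with Flt3, Cd3e and Cd3d listed at 0. The part of these shifts in the pathway results was not tested.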

How the data were processed

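Total RNA of 6 BMDM samples was sequenced after removal of ribosomal RNA, per the labels' protocols, and groups follow the treatment in the labels. HISAT2, StringTie, DESeq2, limma, bcl2fastq 2.0 and mm10 appear in the submitters' processing notes without roles; how reads were counted, on which strand and against which gene models is not given in the sources used here. Per the file headers, the values the authors deposited for each library are FPKM; an entry of 0.0001 stood for an undetected gene and was set to 0. They also deposited a fold (ratio of mean FPKM), its log2, and a p-value and q-value per gene whose tool is not stated, per the file headers.

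L-OHP+FUC was compared with L-OHP by limma 3.58.1 in R 4.3.3, fitted to log2(FPKM + 1) with a trend of variance on intensity. Tests were two-sided, and the Benjamini-Hochberg adjustment, at 0.05, ran over every gene that reached 0.5 FPKM in 3 or more libraries. The code was tested on simulated data. Correction for GC content and length subtracted loess trends (span 0.3, 4 robust iterations) fitted per library, using the longest GENCODE M21 transcript. Fragments per library were inferred from the most common low FPKM value of transcripts of at least 400 bases; a share of 22.5% to 24.7% of such values lay within 0.03 of a whole number of fragments, so no counts were recovered and no count test or counting interval was used.

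The members, lists and tests were chosen with earlier results of these data known. All members are accounted for; those past the threshold and the control genes are given per library. Related genes named are, per list, up to 4 past the threshold with the smallest p; a result that the rule covers is not reported here. Srebf1 was added for comparison and was chosen after its value was seen. No symbol of a member named a second row.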

Additional observations from a re-analysis of the deposited data

How the results depend on the processing

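A pseudocount of 0.1 and moderation without the trend left the number of pathway genes called lower at 11 and higher at 1. Of all tested genes, 18.4% and 19.6% were lower in those 2 fits, and 7.57% and 7.55% higher. The number called lower was 4 with no filter on low values, 7 of 17 tested with a mean of at least 5 FPKM, 5 after median ratio rescaling, 4 after quantile normalization, 5 with the replicate number as a block (replicate block), 6 after correction for GC content and length, 3 after that correction with the replicate block, and 4 to 8 when single libraries were left out. The number called higher was 0 with no filter (2.26% of all tested genes) and 2 after the correction (11.5%). It was 0 after the correction with the block (5.43%) and 0 to 1 when single libraries were left out (2.2% to 9.28%). The 12 related genes called lower became 6 with no filter, 6 after median ratio rescaling and 5 after the correction. They became 4 after the correction with the block and 2 to 11 with a library left out. The share of all tested genes called lower was 6.12% with no filter and 16.3% with a mean of at least 5 FPKM. It was 14.6% with the replicate block and 6.7% after the correction with the block. The shares in the other fits are those given above. The 6 called higher became 12 after median ratio rescaling (13.1% of all tested genes) and 3 with the replicate block (4.58%). They became 3 after the correction with the block (5.43%), 10 at a threshold of 0.1 (11.9%), and 2 to 7 with a library left out (2.2% to 9.28%). The median of the pathway genes was -0.12 after median ratio rescaling, -0.0577 after quantile normalization, and -0.30 to -0.21 with a library left out.

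Changes of sign occurred only in genes that had not passed. Median ratio rescaling gave Insig2 0.0944. Quantile normalization gave Fdft1 0.0824, Lbr 0.0013, Hsd17b7 0.0231, Dhcr7 0.0570 and Insig2 0.12. The correction, with or without the block, gave Hsd17b7 0.0264, Srebf2 -0.0138, Insig2 0.0883 and Mbtps2 0.16. With a library left out, Fdft1 ran from -0.29 to 0.0622, Srebf2 from -0.13 to 0.18 and Insig2 from -0.0673 to 0.0342. The deviations of same-numbered libraries correlated at -0.04, -0.07 and 0.08, and those of other pairs ran from -0.15 to 0.16. With 3 libraries per group, these values cannot show whether same-numbered samples belong together, which the labels leave unsaid. The main fit used no pairing. The cause of these shifts was not tested; fits with a library left out have fewer samples. Over all tested genes, 2335 lower and 927 higher calls became 1520 and 561 of 24828 with no filter. They became 966 and 754 of 5917 with a mean of at least 5 FPKM, and 1762 and 554 with the replicate block. The calls were 809 and 656 after the correction with the block, and 3201 and 1436 at a threshold of 0.1. At the lowest they were 835 and 266, without L-OHP+FUC replicate 2. No read counts were at hand, so counting error at the lowest gene, Tm7sf2, is not separated from other spread.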
